A study of Mus musculus with 8 samples.

Results

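The immunity-related GTPases, or IRG proteins, are a family of interferon-inducible GTPases with which mouse cells defend themselves against parasites and bacteria that live inside vacuoles. The effector type, named GKS after the residues of its nucleotide-binding loop, loads onto the vacuole membrane and breaks it, and the regulatory type, named GMS, sits on the cell's own membranes and holds the effectors in their inactive, GDP-bound state. Transcription of the family in the mouse is driven through gamma-activated sites (GAS) and interferon-stimulated response elements (ISRE). The genes were taken by symbol: every probe set of the array annotated to Iigp1, Igtp, Irgm1, Irgm2, Ifi47, Gm4951 or Tgtp1 alone. This gave 7 of the 45101 probe sets and 6 of the 18194 named genes, since Tgtp1 had no probe set with its symbol alone and was not analysed here. All 7 probe sets and all 6 genes passed the filter on dim signals, a log2 value above 4 on at least 4 arrays, which left 11446 genes and 22252 probe sets to test.

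The 4 mutant samples were microvessel fragments from the brains of mice whose Pdgfrb gene carries the substitution D849V as a knock-in, by which the receptor, PDGF receptor beta of pericytes, is active without ligand; the labels do not give the number of mutant alleles. The 4 control samples came from wild-type brains, and both groups were at postnatal day 1 and on a mixed 129S/J background. Brains were dissociated, and vessel fragments with attached pericytes were captured on beads against PECAM, an endothelial surface protein, and each array held RNA from 1 brain. The comparison asks what the active receptor changes in the transcripts of newborn brain microvessels.

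Endothelial and pericyte markers, the defining markers of the labelled tissue, lay well above the filter level on all arrays except for the pericyte marker Anpep, which lay near it (4.03 ± 0.46 in mutant and 3.99 ± 0.39 in control microvessels, SD, n = 4 each). The mean of 8 endothelial markers lay between 11.32 and 11.98 on the mutant arrays and between 11.72 and 12.29 on the control arrays, and that of 8 pericyte markers between 10.68 and 11.11 on the mutant arrays and between 10.71 and 11.14 on the control arrays (log2 values). Pdgfrb, the gene with the knock-in, read 11.84 ± 0.21 on mutant arrays and 12.85 ± 0.05 on control arrays with its brighter probe set, and 9.24 ± 0.41 on mutant arrays and 9.15 ± 0.40 on control arrays with the other (SD, n = 4 each). Because a substitution can leave transcript level as it is, Pdgfrb is no check of the labels. Over the tested genes, arrays of the same group correlated at 0.967 to 0.991 and arrays of different groups at 0.932 to 0.968 (Pearson). No litter, preparation day or scan date was known for these arrays, and batches were therefore not tested.

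Sequences before the transcription starts are shown for the members on chromosome 11 with a value on the array. The part of their motifs in the rises was not tested. The windows of Iigp1 and Gm4951 were not used here. Each is the 250 bases ahead of the annotated start (RefSeq, GRCm38.p6), 5′ to 3′ on the gene's own strand. Capitals mark matches to the GAS motif TTCNNNGAA, which reads the same on both strands, or to the ISRE core, GAAA and GAAA with any 2 bases between them, searched on both strands.
Igtp, chr11:58199306-58199555, plus strand: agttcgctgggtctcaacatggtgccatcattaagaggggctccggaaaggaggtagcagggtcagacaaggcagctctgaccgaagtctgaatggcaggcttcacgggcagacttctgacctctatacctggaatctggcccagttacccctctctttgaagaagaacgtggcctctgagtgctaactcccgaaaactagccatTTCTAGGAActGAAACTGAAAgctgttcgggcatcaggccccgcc
Irgm2, chr11:58214727-58214976, plus strand: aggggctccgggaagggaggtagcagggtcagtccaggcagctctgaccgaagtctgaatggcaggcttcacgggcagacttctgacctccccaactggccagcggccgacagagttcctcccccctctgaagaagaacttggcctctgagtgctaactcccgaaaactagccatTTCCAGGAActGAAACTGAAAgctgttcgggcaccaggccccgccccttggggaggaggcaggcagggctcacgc
Irgm1, chr11:48871421-48871670, minus strand: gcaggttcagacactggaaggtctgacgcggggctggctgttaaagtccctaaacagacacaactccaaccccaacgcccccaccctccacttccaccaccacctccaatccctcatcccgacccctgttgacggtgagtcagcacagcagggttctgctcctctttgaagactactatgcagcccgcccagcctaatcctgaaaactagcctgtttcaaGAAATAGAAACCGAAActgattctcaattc
Ifi47, chr11:49076337-49076586, plus strand: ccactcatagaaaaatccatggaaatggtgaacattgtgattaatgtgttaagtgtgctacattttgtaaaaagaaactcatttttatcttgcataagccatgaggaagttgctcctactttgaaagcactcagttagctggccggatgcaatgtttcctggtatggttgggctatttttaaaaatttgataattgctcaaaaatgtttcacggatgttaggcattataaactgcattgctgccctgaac

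Igtp and Irgm2 each held a GAS motif followed after 2 bases by an ISRE core, all within the last 75 bases before the start. The GAS motif began 45 bases before the start in Igtp and 75 bases before it in Irgm2. Irgm1 held 2 ISRE cores, which share 4 bases, beginning 30 and 24 bases before the start, and no GAS motif. Ifi47 held neither string in its window, which says only that these letters are not there. Tgtp1 also held a GAS motif with an ISRE core after 2 bases, the GAS motif beginning 88 bases before its start. Over the 32851 windows of the same length in the RefSeq table, 7.02% held the GAS motif, 2.98% the ISRE core and 0.332% both. The spacing of 2 bases, looked for after these windows had been read, occurred in 5 of the 32851 windows, and the 5 belonged to Igtp, Irgm2, Tgtp1, Tgtp2 and Gm12185. Tgtp2 and Gm12185 are other genes of the same family on chromosome 11. Igtp and Irgm2 are direct neighbours with no annotated gene between them, and 194 of the 215 aligned bases of their windows (90.2%) were identical.

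All 6 genes were higher in the mutant microvessels, by 8.27-fold in Irgm2 to 220.0-fold in Iigp1, and on every mutant array each gene lay above all its control values. The effector genes Iigp1, Gm4951 and Ifi47 rose more than the regulatory genes Irgm1, Igtp and Irgm2. On the control arrays the effectors had the lower means, 5.81, 3.82 and 6.67 against 7.14, 8.21 and 7.91. On the mutant arrays the means of the classes were interleaved, 13.59, 10.10 and 11.74 against 11.32, 12.37 and 10.96. The part of the control level in the sizes of the rises was not tested. With limma and Benjamini-Hochberg adjustment over all genes, 6 of 6 members rose, against 2.66% of all tested genes, and none fell, against 1.92%. Gm4951 exceeded the filter level on 4 mutant and only 2 control arrays. Its place among the tested genes leans on its mutant arrays and is no support for a rise. Without a filter 6 of 6 members were called higher. The groups did not overlap with mutants higher in 6 of 6 members, against 4.07% of all tested genes. The median log2 difference of the 6 genes was 4.62, and that of all tested genes was -0.11. Tested as single features, 7 of 7 probe sets rose, against 1.85% of all probe sets. In whole microvessel preparations a change in the number of expressing cells and a change in RNA per cell cannot be told apart.

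**Figure D1:**
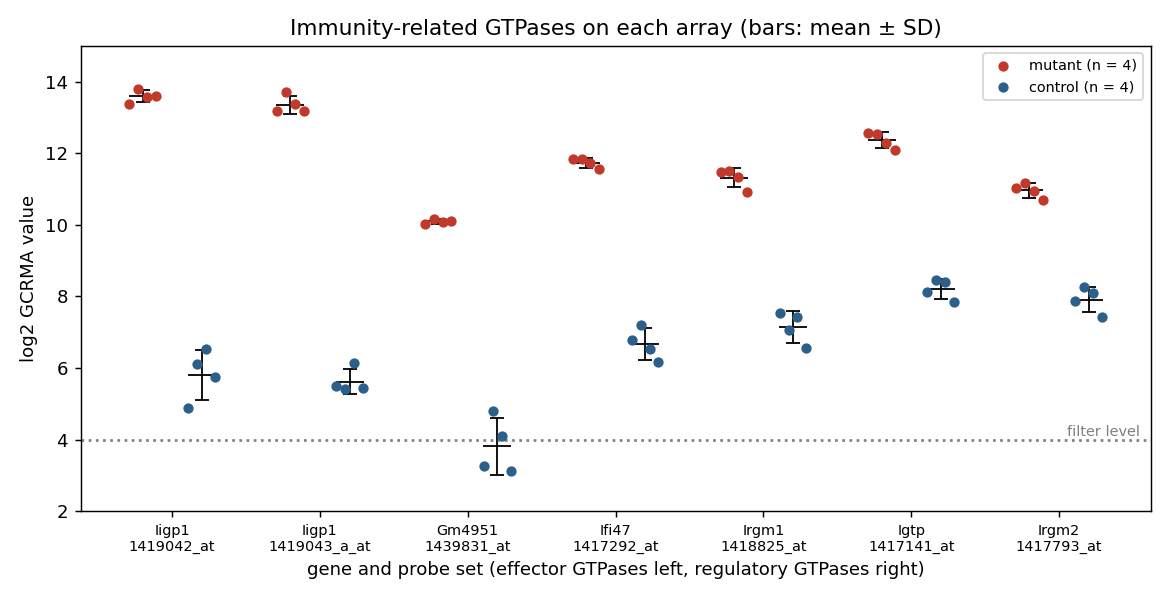
Log2 GCRMA value of each of the 7 probe sets on each array, mutant arrays (red, left of each pair) and control arrays (blue, right), with mean and SD in black and the filter level of 4 dotted. The lowest mutant point of every probe set lies above its highest control point, and the Gm4951 control points straddle the filter level.

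Among the effector genes, Iigp1 encodes Irga6, the best studied protein that loads onto the vacuoles of the parasite Toxoplasma in mouse cells. Its brighter probe set read 13.39, 13.80, 13.58 and 13.60 on mutant arrays 1 to 4, against 4.87, 6.11, 6.52 and 5.76 on control arrays 1 to 4. The mutant values lay within 0.41 of each other, the control values spread over 1.65, and control array 1 was the lowest. The log2 difference was 7.78 (SE 0.31, limma adjusted p = 1.82e-06), and by size it ranked 4 among the rises of the 11446 tested genes. The other probe set of Iigp1 read 13.17, 13.71, 13.38 and 13.17 on the mutant arrays and 5.51, 5.41, 6.14 and 5.43 on the control arrays. Its difference was 7.74 (SE 0.20, limma adjusted p = 3.49e-07 over all probe sets). The probe sets gave nearly the same difference, but they ordered the control arrays differently: control array 1 was the lowest on the brighter one and the second highest on the other.

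Gm4951, annotated with the synonym Ifgga2 that places it in the same subfamily as Iigp1, read 10.03, 10.17, 10.07 and 10.12 on the mutant arrays, against 3.25, 4.81, 4.10 and 3.11 on the control arrays. The mutant arrays were within 0.14 of each other, while 2 of the 4 control arrays lay under the filter level of 4, where values are not resolved. Its log2 difference was 6.28 (SE 0.34, limma adjusted p = 1.16e-05), and 5.87 with the dim control values set to 4.

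Ifi47, which encodes the effector Irgd, read 11.85, 11.83, 11.74 and 11.55 on the mutant arrays and 6.79, 7.20, 6.53 and 6.17 on the control arrays. The lowest mutant array lay 4.34 above the highest control array. The log2 difference of Ifi47 was 5.07 (SE 0.20, limma adjusted p = 1.82e-06), a fold of 33.6.

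Among the regulatory genes, Irgm1, whose protein is found on the Golgi, lysosomes and other membranes of mouse cells, read 11.48, 11.50, 11.35 and 10.93 on the mutant arrays. Its control values were 7.55, 7.05, 7.43 and 6.55, and the fourth array was the lowest of each group. The log2 difference was 4.17 (SE 0.23, limma adjusted p = 1.25e-05), or 18.1-fold.

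Igtp, which encodes Irgm3 of the endoplasmic reticulum and lipid droplets, read 12.58, 12.54, 12.28 and 12.08 on the mutant arrays against 8.13, 8.47, 8.40 and 7.85 on the control arrays. Neither group spread over more than 0.62. The log2 difference was 4.16 (SE 0.17, limma adjusted p = 1.86e-06), or 17.8-fold.

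Irgm2, a Golgi protein, read 11.03, 11.17, 10.94 and 10.70 on the mutant arrays against 7.88, 8.26, 8.09 and 7.43 on the control arrays. It had the smallest difference of the 6 genes, 3.05 (SE 0.19, limma adjusted p = 2.245e-05), and still a gap of 2.44 between the lowest mutant and the highest control array.

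The sizes of the rises differed between genes. For each of the 15 pairs of genes the log2 gap between their probe sets on an array was compared between mutants and controls with an exact permutation test, two-sided, in which 70 assignments are possible. In 14 of the 15 pairs the gap shifted (exact p = 0.0286, the smallest the 70 assignments allow, adjusted p = 0.0306 over the 15 pairs), with no overlap between the groups. The exception was Irgm1 and Igtp, whose differences were 0.02 apart (95% interval -0.46 to 0.50, exact permutation p = 0.943). All 9 pairs of an effector with a regulatory gene shifted towards the effector, by 0.90 for Ifi47 against Irgm1 (95% interval 0.30 to 1.49) to 4.73 for Iigp1 against Irgm2 (95% interval 3.88 to 5.59). These pairs reuse the same genes and arrays and are not independent. Within the effectors, Gm4951 rose by 1.21 more than Ifi47 (95% interval 0.51 to 1.91). With dim values set to the filter level, Gm4951 still rose by 0.80 more than Ifi47 and by 1.69 more than Irgm1. Iigp1 rose by 1.50 more than Gm4951 as measured. With dim values set to the filter level, the difference of Gm4951 minus that of Iigp1 was -1.91. Because the control values of Gm4951 were not resolved on 2 of the 4 arrays, its rise may be larger or smaller than measured. No order between Iigp1 and Gm4951 is read from these values.

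**Figure D2:**
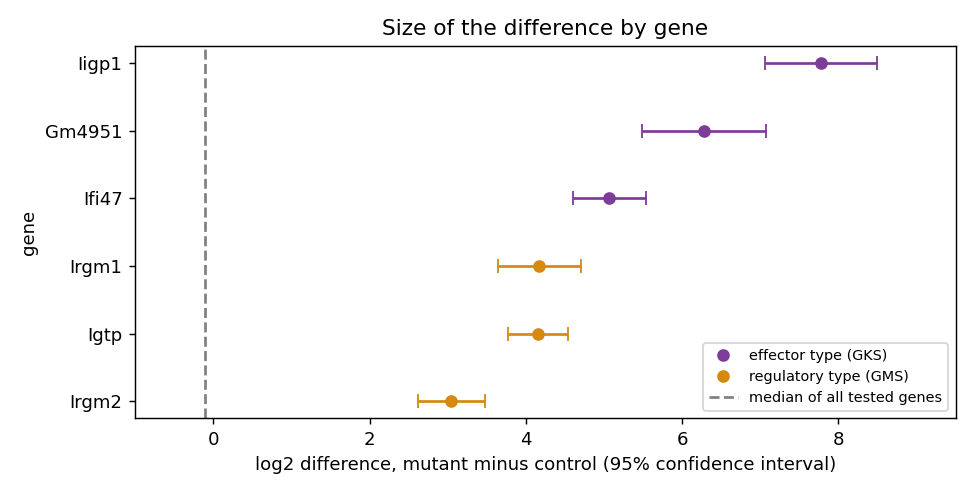
Log2 difference (mutant minus control) of each gene with its 95% confidence interval from limma, effector genes in purple and regulatory genes in orange, and the median of all tested genes as a dashed line. The values run from 7.78 for Iigp1 to 3.05 for Irgm2, that of Gm4951 rests on control values partly under the filter, and the intervals of Irgm1 and Igtp lie over each other.

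Leaving out any mutant array left 11 or 12 of the 15 pairs past the threshold. Without mutant array 1, 2, 3 or 4 in turn, the pairs of Irgm1 with Ifi47 and with Gm4951 missed it (exact permutation p = 0.0571, adjusted p = 0.0612 each time), and without mutant array 2, 3 or 4 so did Iigp1 with Gm4951 (exact permutation p = 0.0571, adjusted p = 0.0612). The directions of these pairs were the same in each case.

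The neighbours Igtp and Irgm2 kept the steadiest gap on the control arrays. Their gap spanned 0.21 within the mutant arrays and 0.21 within the control arrays, although Irgm2 alone spread over 0.83 in controls. Over the 15 pairs the control spans ran from that 0.21 to 2.06 for Gm4951 with Irgm1, and the mutant spans from 0.19 for Ifi47 with Igtp to 0.76 for Iigp1 with Irgm1. Between the groups the gap of Igtp and Irgm2 shifted by 1.11 (95% interval 0.95 to 1.27).

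Within each group some arrays were the highest or lowest for several of the genes, but the genes did not all move together. Mutant array 4 was the lowest mutant array in 4 of the 6 genes and mutant array 2 the highest in 4. Control array 4 was the lowest control array in 5 of the 6 genes and control array 2 the highest in 4. The shares of all tested genes that were highest or lowest on these arrays were not computed. Mutant array 1 was the highest mutant array for Igtp and Ifi47 and the lowest for Iigp1 and Gm4951. On control array 1, Iigp1 deviated from its group mean by -0.95 and Gm4951 by -0.57, but Irgm1 by 0.41. The mean deviation of the 6 genes from their group mean was -0.18 on mutant array 4 and -0.45 on control array 4. On mutant array 4 the 13 tested microglia and macrophage markers also had their lowest mutant mean, 8.97 against 9.57 to 9.87 on the other mutant arrays, whereas on control array 4 they had their highest control mean, 7.98 against 7.01 to 7.87. The mean of the endothelial markers was 11.32 on mutant array 4 and 11.91 to 11.98 on the other mutant arrays. The part of these differences in the values of the 6 genes was not tested.

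**Figure D3:**
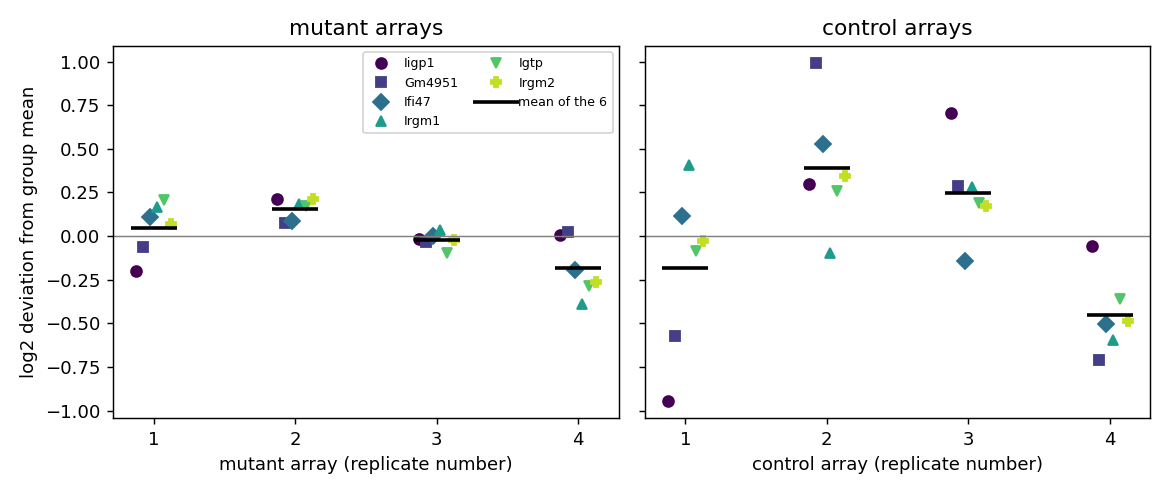
Log2 deviation of each of the 6 genes from its own group mean on each array, mutant arrays left and control arrays right, with black bars for the mean of the 6. The mean of the 6 is lowest on array 4 in both groups, at -0.18 and -0.45, and Iigp1 and Gm4951 spread most on the control arrays.

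By position the genes fall into groups. Igtp and Irgm2 adjoin each other on chromosome 11, and Irgm1, Tgtp1 and Ifi47 lie in another cluster of that chromosome, with 7 protein-coding genes between Irgm1 and Ifi47. Gm4951 and Iigp1, which had the largest rises of the 6, lie on chromosome 18 with 2 protein-coding genes between them. That is also the chromosome of Pdgfrb, with 14 protein-coding genes between Iigp1 and Pdgfrb. Of these 14 genes 9 were tested, 1 rose and none fell, with a median log2 difference of 0.02. Over all tested genes 2.66% rose and 1.92% fell, and 9 genes are too few to compare with these shares. The 1 that rose was Cd74, which encodes the chaperone of class II MHC molecules, named after its value was seen.

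The tested genes whose profile over the 8 arrays lay closest to the mean profile of the 6 members were Psmb8 and Psmb9, subunits of the immunoproteasome, Tap1, a peptide transporter, Cmpk2, a nucleotide kinase of mitochondria, and Ifit2, an antiviral protein. Likeness was measured as the Euclidean distance between log2 values centred on each gene's mean, which was 0.602 for Psmb8, 0.643 for Psmb9, 0.720 for Tap1, 0.897 for Cmpk2 and 0.901 for Ifit2. The members' own distances ran from 0.523 for Ifi47, the closest of all tested genes, to 3.95 for Iigp1, whose rise was larger than the mean. Each member is part of the mean profile, so these distances are partly fixed in advance. The values were not scaled, so the distance also depends on the size of the group difference. That size was 5.12 for Psmb8, 5.07 for Psmb9 and 5.07 for Ifi47. Psmb8 read 11.70 ± 0.17 in mutant and 6.58 ± 0.10 in control microvessels (SD, n = 4 each).

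Related gene families moved with the immunity-related GTPases. The counts of this and the following lists stand beside 2.66% of all tested genes called higher and 1.92% called lower. Of the 10 guanylate-binding proteins listed, larger interferon-induced GTPases that also gather on such vacuoles, 5 had a probe set of their own and were tested, and 5 of 5 rose, with a median log2 difference of 4.25. Gbp6 read 12.20, 12.86, 12.43 and 12.34 on the mutant arrays and 6.73, 6.55, 7.14 and 6.64 on the control arrays, a fold of 51.8 (limma adjusted p = 7.42e-07). Gbp8 lay under the filter on all control arrays and was at least 26.3-fold higher, with the control group set to 4. Gbp2 was 19.0-fold and Gbp3 8.16-fold higher. Both interferon-induced dynamins, antiviral GTPases of another family, rose: Mx1 was at least 24.9-fold and Mx2 at least 4.26-fold higher, with control groups set to 4 (limma adjusted p up to 0.00302). Gbp8, Mx1 and Mx2 passed the filter only through their mutant arrays, so their place among the tested genes is no support for a rise. Without a filter 5 of 5 guanylate-binding proteins and 2 of 2 dynamins were called higher. Of 10 other listed genes of the IRG family or near it, 3 had a probe set of their own. Irgq, a distant member, read 7.95 ± 0.45 in mutant and 8.34 ± 0.14 in control microvessels (SD, n = 4 each; limma adjusted p = 0.327), and Irgc1 and Gm12185 lay under the filter on all 8 arrays.

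Of 11 genes of interferon-gamma signalling, the classical inducer of the family, 7 were tested, 3 rose and none fell. Those were Nlrc5, the transactivator of MHC class I (at least 15.3-fold, with the control group set to 4), and the transcription factors Irf8 (6.20-fold) and Irf1 (4.33-fold), with limma adjusted p up to 0.000603. Nlrc5 passed the filter only through its mutant arrays. Ifng, the gene of the cytokine itself, lay under the filter on all 8 arrays, with 2.19, 2.18, 2.18 and 2.18 on the mutant arrays and 2.18 on each control array, at the lowest values of the table. Its receptor chain Ifngr1 read 8.02 ± 0.24 in mutant and 7.91 ± 0.19 in control microvessels (SD, n = 4 each). Of 9 genes of type I interferon signalling, 8 were tested, 3 rose and none fell: the transcription factors Irf7 and Irf9 (3.66-fold) and Usp18 (55.3-fold), which blocks the type I receptor (limma adjusted p up to 0.000322). Some alternative settings also called genes of this list lower. Irf7 was 115-fold higher as fitted, but 2 of its 4 control values lay under the filter, so the size is not resolved. Ifnb1 lay under the filter on all 8 arrays, and the receptor chain Ifnar1 differed by -0.45 (SE 0.11, limma adjusted p = 0.0553).

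The proteins that act with the GTPases on vacuoles divided. Of 4 tested ubiquitin factors of the vacuole, the E3 ligases Rnf213 (10.6-fold, limma adjusted p = 3.97e-05) and Trim21 (4.55-fold, limma adjusted p = 0.000176) rose. None of the 12 genes of the autophagy conjugation machinery, which directs IRG proteins to the right membranes, passed in limma's test, 2 had an unadjusted p under 0.05 (20.6% of all tested genes did), and their median log2 difference of -0.12 was close to the -0.11 of all tested genes. Atg16l1, with the smallest p of this list, differed by -0.37 (SE 0.11, limma adjusted p = 0.114). It read 6.70, 6.97, 7.08 and 7.12 on the mutant arrays and 7.42, 7.43, 7.30 and 7.21 on the control arrays. Map1lc3b, an LC3 protein, read 12.79, 12.89, 13.02 and 13.20 on the mutant arrays and 13.14, 13.33, 13.30 and 13.33 on the control arrays, and Map1lc3a differed by -0.22 (SE 0.10, limma adjusted p = 0.281).

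**Figure D4:**
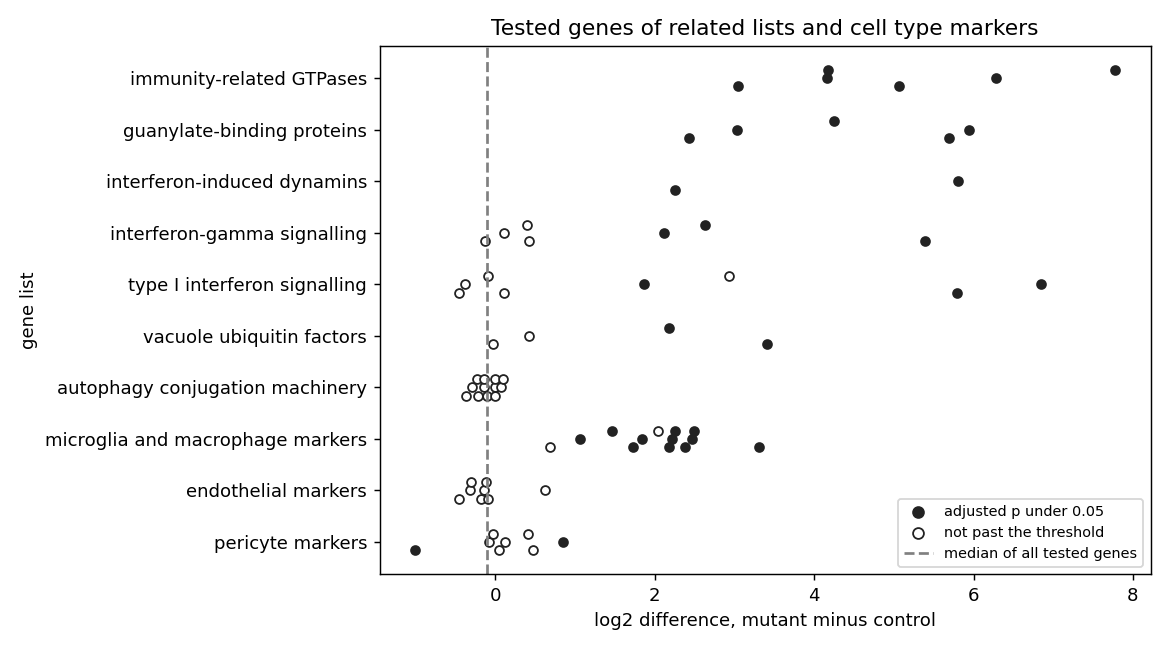
Log2 difference (mutant minus control) of the tested genes of each list, filled where the limma adjusted p was under 0.05, with the median of all tested genes as a dashed line. The 6 immunity-related GTPases and 5 guanylate-binding proteins are all filled and lie to the right, the 12 autophagy genes are all open and gather at the median, and 11 of the 13 microglia and macrophage markers are filled.

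Markers of other cells that can express the family moved in part with the groups. Of 13 tested microglia and macrophage markers 11 rose, against 2.66% of all tested genes, and none fell, against 1.92%. Their median log2 difference was 2.18. The mean of all 14 measured markers lay between 8.49 and 9.34 on the mutant arrays and between 6.67 and 7.57 on the control arrays, and Itgam was under the filter on all 8 arrays. The differences of these markers ran up to 3.31 for Aif1, a calcium-binding protein of microglia (9.91-fold, limma adjusted p = 0.00198), and 5 of the 6 immunity-related GTPases had larger ones. The part of these cells in the rise of the GTPases was not tested. The 8 measured markers of T and NK cells all failed the filter, with means between 2.23 and 2.77 on the mutant arrays and between 2.22 and 2.24 on the control arrays; Gzmb exceeded 4 on 1 mutant array. Of 8 endothelial markers none passed in limma's test and 2 had an unadjusted p under 0.05, near the 20.6% of all tested genes, and of 8 pericyte markers Higd1b rose by 0.85 (limma adjusted p = 0.041) and Pdgfrb fell by 1.01 on its brighter probe set (limma adjusted p = 0.00132). On its other probe set Pdgfrb differed by 0.09 (limma adjusted p = 0.888 over all probe sets). With means of probe sets no pericyte marker was called lower. Without any single array except control array 2, no pericyte marker was called higher. None of 5 neuron, 5 astrocyte and radial glia or 4 choroid plexus markers passed in limma's test, and 1, 0 and 0 of them had an unadjusted p under 0.05. Without mutant array 1, where Gfap read 2.86 against 6.11 to 6.98 on the other mutant arrays, 2 of the 5 astrocyte and radial glia markers were called, both higher, and without control array 1 so was 1 neuron marker.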

How the data were processed

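RNA from brain microvessels, 6 ug of total RNA per array, was measured on 8 single-colour oligonucleotide arrays, 4 mutant and 4 control. The authors deposited a log2 value for each probe set and array, computed with GCRMA according to the submitters' processing notes, without a stated version or options. GCRMA corrects background from probe sequence, normalizes by quantiles and summarises probe sets, so dim values collect at a floor, on which the folds of dim genes depend. The log2 scale was inferred from the range of the values, 2.18 to 16.49. Arrays give no counts, and their number limits the precision.

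Of 45101 probe sets, the platform annotation gave 34958 a single symbol, 932 several symbols and 9211 none. Each gene was represented by its probe set with the highest mean, and features above a log2 value of 4 on at least 4 arrays were tested between groups in limma 3.58.1 (lmFit, then eBayes; R 4.3.3), two-sided and with no covariate, using Benjamini-Hochberg adjustment over all tested genes, or over all tested probe sets without the 64 control ones, and a threshold of 0.05. The script was run on simulated data with known changes. For a group with no array above the filter, the fold was computed against a level of 4 and is a lower bound. Pair gaps were tested by exact permutation, with intervals from their SE.

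The members, the lists, the split into regulatory and effector genes and the motifs were chosen with earlier results of these data known. Named genes are all members, Pdgfrb, up to 4 of each list with the smallest p, or the 2 brightest where none passed, and the 5 closest profiles; of these, those needed for the comparisons are printed, and others that are named were chosen after their values were seen. Genome order, symbols and sequences come from RefSeq tables of GRCm38.p6. Alternatives were other filters, a second quantile normalization, median centring, a replicate block, trend and robust settings, array weights, means of probe sets, each array left out and, added after seeing the data, dim values set to 4.

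Replicate numbers are shared by the groups, but same-numbered arrays did not deviate together: the correlations of their deviations from the group means over the tested genes were -0.08, -0.48, -0.20 and 0.30.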

Additional observations from a re-analysis of the deposited data

Results flagged for a closer look

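On the second probe set of Iigp1, control array 3 stood apart from the other control arrays at 6.14, with the next at 5.51. Its gap to the nearest value was 0.863 of the group's range, above Dixon's critical value of 0.829 for 4 samples. Of 14 groups of values examined 1 was singled out in this way; a share of such flags arises by chance. The same array was also the highest control array on the brighter probe set of Iigp1, at 6.52.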

How the results depend on the processing

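All 6 genes and 7 probe sets rose in each alternative run for them. Over 17 settings the log2 difference ran from 7.47 to 8.02 for Iigp1, 5.87 to 6.61 for Gm4951, 4.90 to 5.29 for Ifi47, 3.98 to 4.40 for Irgm1, 4.04 to 4.25 for Igtp and 2.88 to 3.20 for Irgm2, with the largest limma adjusted p at 0.000614. With the replicate block, which pairs arrays by number only, the count of changed genes over the whole table was 259 against 524, and the calls of the 6 genes held. With array weights it was 3158, and the cause was not tested. Leaving out 1 array gave 303 to 608 changed genes, and 6 of 6 members rose each time. The pairs of members whose rises differed numbered 11 to 14 with 1 array left out and 14 in the other settings. Among the lists, the guanylate-binding proteins stayed at 5 in every setting. Array weights called 2 autophagy genes, both lower, and called Irgq lower. They also called 6 type I interferon genes, 4 of them higher, and 3 endothelial markers, 1 of them higher. With the stricter filter, median centring, trend and robust settings or without mutant array 1, 4 type I genes were called, 3 of them higher. With means of probe sets or without mutant array 4, 4 were called, all higher. The pericyte markers called numbered 1 to 4 against 2, being 1 lower and none higher without any single array except control array 2, without which they were 4. With means of probe sets 1 pericyte marker was called, and it was higher. Mx2 failed the stricter filter at 6. One neuron marker was called higher with the second quantile normalization, with array weights and without control array 1, and array weights also called 1 astrocyte and radial glia marker. Dim signal limits the control values of Gm4951 and Irf7 and the bounds.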
